A study of Panax japonicus with 5 samples.

Results

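HMG-CoA reductase (HMGR) was represented in the Panax japonicus assembly by 6 unigenes, 4 that the study labels HMGR and 2 that it labels HMGR1, out of 135235 unigenes in all. A unigene is a set of contigs that the Trinity assembler grouped as one gene, and the 6 unigenes held 18 of the 206610 contigs. Members were taken by their labels, not by their levels, and without sequences the labels could not be checked here. RNA was measured in the flower, the young rhizome (rhizome_Y, the youngest bud scar next to the stem), an older part of the rhizome (rhizome_O), the secondary root (secRoot) and the leaf of 1 garden-grown plant, aged 7 years, with 1 poly(A)-selected, strand-specific library per tissue and no treatment. Tissue and library therefore cannot be told apart, no test between tissues was possible, and every interval below covers counting error only, at 95%.

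HMGR sits in the membrane of the endoplasmic reticulum and reduces HMG-CoA to mevalonate with NADPH, which is regarded as a main control point of the cytosolic mevalonate pathway. Mevalonate is turned into isopentenyl diphosphate and then into squalene, from which plants make sterols and, in ginseng species, the triterpene saponins stored in root and rhizome. Plants usually carry several HMGR genes, which can differ in where and when they are used.

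Library totals lay between 2403221 expected counts in flower and 4920387 in secRoot. The leaf library stood apart: of 47667 unigenes with at least 20 counts over the 5 libraries, 17106 (35.9%) had over 95% of their counts in leaf, 29867 (62.7%) had under 5% there and 694 (1.46%) lay between. Contigs annotated as ribulose-bisphosphate carboxylase, the carbon-fixing enzyme of green tissue, summed to FPKM 6026 in leaf and 966.8 in flower, against 11.6 to 42.7 in the 3 underground libraries, but the contigs with many counts in flower and in leaf were different ones. A value near 0 in leaf on a given unigene thus says little of that enzyme in leaf, and the comparisons below are among the 4 other libraries unless leaf is named.

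Summed over the 6 unigenes, HMGR was most abundant in flower. The summed FPKM (fragments per kilobase of contig, scaled to the mapped fragments of the library) was 328.0 in flower, against 183.4 in rhizome_Y, 126.0 in rhizome_O, 101.6 in the secondary root and 2.26 in leaf, from 940, 584, 459, 507 and 10 counts in that order of tissues. Flower exceeded the mean of rhizome_Y, rhizome_O and secRoot, 137.0, by 2.39-fold (2.21 to 2.60). Against single tissues it was 1.79-fold higher than rhizome_Y (1.61 to 1.99), 2.60-fold higher than rhizome_O (2.33 to 2.92) and 3.23-fold higher than secRoot (2.90 to 3.61).

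Among the underground tissues rhizome_Y was the highest, 1.46-fold above rhizome_O (1.29 to 1.65) and 1.81-fold above secRoot (1.60 to 2.04). Rhizome_O was 1.24-fold above secRoot (1.09 to 1.41), but this step depended on which contigs were added up: it was 0.993 with the most abundant contig of each unigene and 0.948 with the unlabelled unigene TR68099|c2_g2, described below, counted as HMGR. In flower 0.951% of the detected unigenes had a higher FPKM than the HMGR total, against 2.19% in rhizome_Y, 2.73% in rhizome_O and 3.57% in secRoot. Because whole tissues were extracted, more cells that use HMGR and more HMGR RNA per cell cannot be told apart.

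**Figure D1:**
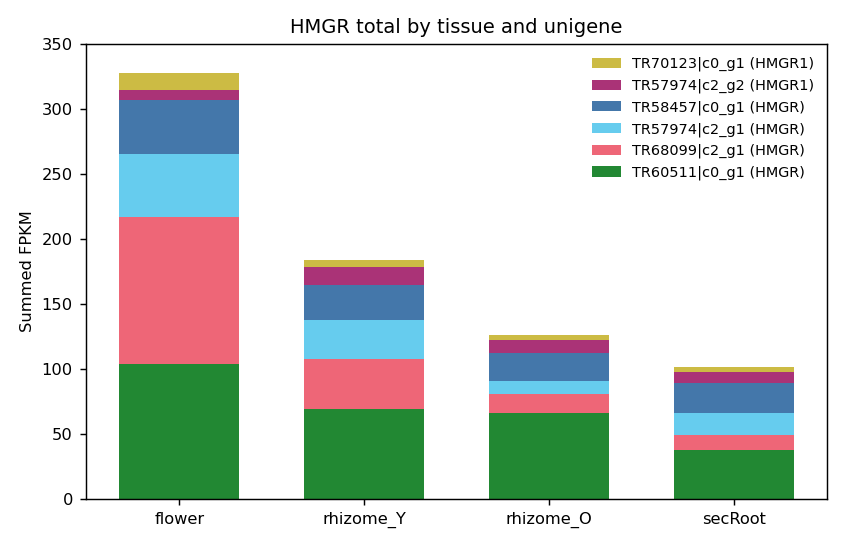
Summed FPKM of the 6 HMGR and HMGR1 unigenes in the 4 libraries other than leaf, divided into unigenes. The flower column reaches 328.0, and TR68099|c2_g1 makes up 113.40 of the flower column but 11.86 of the secRoot column.

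Taken one by one, 3 of the 6 unigenes were over 2-fold higher in flower than the underground mean, a size that 16.3% of the 30264 unigenes with at least 20 counts over the 4 libraries also reached. They were TR68099|c2_g1, TR70123|c0_g1 and TR57974|c2_g1, of which TR57974|c2_g1 fell just short, at 1.99-fold, when its short contig was left out. None of the 6 was over 2-fold lower in flower, against 19.6% of all unigenes. Against single tissues, flower was over 2-fold above rhizome_Y in 2 of the 6 (19.9% of all unigenes), above rhizome_O in 3 (18.3%) and above secRoot in 4 (22.8%). Flower was the highest tissue for 5 of the 6, and for 34.8% of all unigenes. The median log2 ratio of flower to the underground mean was 1.10 for the 6, from -0.41 to 2.40, and 0.01 over the 29463 unigenes for which it could be given. Underground, rhizome_Y was above rhizome_O in 6 of 6 (43.6% of all unigenes) and above secRoot in 6 of 6 (48.4%), though many of these differences were within counting error, as given below. The lower step of the total, rhizome_O over secRoot, was not shared: the ratio was 0.968 for TR58457|c0_g1, 0.585 for TR57974|c2_g1 and 0.925 for TR70123|c0_g1, and among the 6 it was above 1 beyond counting error only for TR60511|c0_g1.

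The widest range belonged to TR68099|c2_g1, labelled HMGR, which has the longest contig of the 6 unigenes, 2125 bp. Its FPKM was 113.40 in flower, against 37.98 in rhizome_Y, 14.59 in rhizome_O, 11.86 in the secondary root and 0.66 in leaf, with 481, 201, 86, 115 and 6 counts. Flower stood clear of all other tissues, rhizome_Y stood clear of the remaining underground tissues, and rhizome_O and secRoot were within counting error of each other. The flower level was 5.28-fold that of the underground mean (4.62 to 6.04), 2.99-fold that of rhizome_Y (2.53 to 3.54) and 9.56-fold that of secRoot (7.79 to 11.8). It was the 1 member above 3-fold and above 5-fold, sizes that 8.73% and 5.14% of all unigenes reached. Rhizome_Y was 2.60-fold above rhizome_O (2.01 to 3.39), and 3.20-fold above secRoot (2.53 to 4.06). Over 2-fold differences were found for 2 of the 6 members in the pair of rhizome_Y and rhizome_O (9.82% of all unigenes), for 1 in the pair of rhizome_Y and secRoot (12.4%) and for 0 in that of rhizome_O and secRoot (13.5%). With this unigene left out, the other 5 summed to a ratio of 1.86 between flower and the underground mean (1.67 to 2.07).

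The other abundant unigene, TR60511|c0_g1, labelled HMGR, was spread more evenly over the tissues. Its FPKM was 103.68 in flower, against 69.45 in rhizome_Y, 65.99 in rhizome_O, 37.43 in the secondary root and 0 in leaf, with 303, 242, 270, 227 and 0 counts. Flower was the highest and secRoot the lowest of the 4 tissues, and rhizome_Y and rhizome_O were within counting error of each other, with a ratio of 1.05 (0.881 to 1.26). The flower level was 1.80-fold that of the underground mean (1.57 to 2.06), and rhizome_O was 1.76-fold above secRoot (1.47 to 2.11). Against the floor of 3 counts, FPKM 0.453, flower was at least 229-fold above leaf.

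A smaller HMGR unigene, TR57974|c2_g1 (842 bp), had FPKM 48.46 in flower, against 29.97 in rhizome_Y, 9.98 in rhizome_O, 17.05 in the secondary root and 0.66 in leaf, with 60, 49, 19, 46 and 1 counts. Its flower level was 2.55-fold that of the underground mean (1.86 to 3.50). Unlike the HMGR total, it was lowest underground in rhizome_O, where it was 3.00-fold below rhizome_Y (1.74 to 5.40), while the difference from secRoot was within counting error.

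TR58457|c0_g1 (781 bp), also labelled HMGR, was the flattest of the 4. Its FPKM was 41.14 in flower, against 27.29 in rhizome_Y, 21.88 in rhizome_O, 22.61 in the secondary root and 0.71 in leaf, with 61, 48, 46, 69 and 2 counts. Flower was 1.72-fold above the underground mean (1.28 to 2.31), and no pair of underground tissues differed beyond counting error.

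The HMGR1 unigenes had low levels in all tissues. TR70123|c0_g1 (673 bp) had FPKM 13.46 in flower, against 5.38 in rhizome_Y, 3.94 in rhizome_O, 4.26 in the secondary root and 0 in leaf, with 17, 8, 7, 11 and 0 counts. Flower was the highest, by 2.97-fold over the underground mean, with a wide interval of 1.60 to 5.52, and the underground tissues were within counting error of each other.

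TR57974|c2_g2 (1098 bp), the other HMGR1 unigene, was the only member not highest in flower. Its FPKM was 7.88 in flower, against 13.37 in rhizome_Y, 9.65 in rhizome_O, 8.35 in the secondary root and 0.23 in leaf, with 18, 36, 31, 39 and 1 counts. The ratio of flower to the underground mean was 0.754 (0.456 to 1.24), so at this depth no difference between flower and the underground tissues was detectable, and no pair among the 4 tissues had an interval clear of 1. Together the HMGR1 unigenes had FPKM 21.34 in flower, against 18.75 in rhizome_Y, 13.59 in rhizome_O and 12.61 in the secondary root, a ratio of 1.42 between flower and the underground mean (0.979 to 2.07), against 2.51 (2.31 to 2.73) for the 4 HMGR unigenes.

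Over the 6 unigenes, 18 pairs of neighbouring tissues in the order of levels could be set side by side without leaf, and the interval of 10 of them held 1. The step between flower and the next tissue, rhizome_Y in each case, was clear of 1 in all 5 unigenes highest in flower, but only just for TR58457|c0_g1, at 1.51 (1.02 to 2.25), and TR70123|c0_g1, at 2.50 (1.02 to 6.70).

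**Figure D2:**
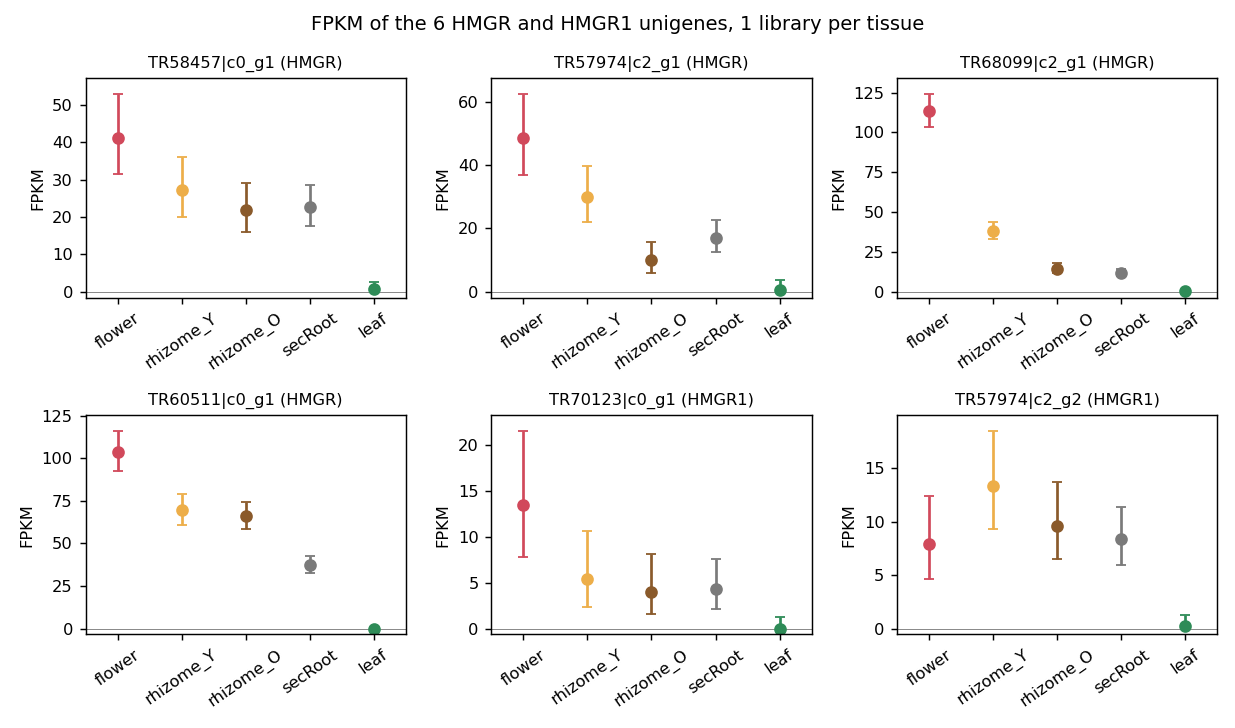
FPKM of each HMGR and HMGR1 unigene in the 5 libraries, with exact 95% Poisson intervals from the counts. Flower is the highest point in 5 of the 6 panels, and in the panel of TR57974|c2_g2 the intervals of flower and the 3 underground tissues overlap.

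The make-up of the HMGR total differed between tissues. By FPKM, TR60511|c0_g1 gave 31.6% of the total in flower, against 37.9% in rhizome_Y, 52.4% in rhizome_O and 36.9% in the secondary root. TR68099|c2_g1 gave 34.6% in flower, against 20.7% in rhizome_Y, 11.6% in rhizome_O and 11.7% in the secondary root. By counts, which favour long contigs, TR68099|c2_g1 held 51.2% of the HMGR counts in flower (48.0 to 54.4%, Wilson interval) and 18.7% in rhizome_O (15.4 to 22.6%), and TR60511|c0_g1 held 32.2% in flower (29.3 to 35.3%) and 58.8% in rhizome_O (54.3 to 63.2%). The leading unigene was thus TR68099|c2_g1 in flower by counts, while TR60511|c0_g1 led in each underground tissue on both scales. With only the most abundant contig of each unigene the share of TR60511|c0_g1, which is split over 9 contigs, was 7.25% in flower and 19.9% in rhizome_O.

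Ratios within a library do not depend on its total. TR68099|c2_g1 stood to TR60511|c0_g1 at 1.09 in flower (0.945 to 1.27), 0.547 in rhizome_Y (0.451 to 0.662), 0.221 in rhizome_O (0.171 to 0.283) and 0.317 in secRoot (0.251 to 0.398), on the FPKM scale. Both unigenes were at similar levels in flower, and TR60511|c0_g1 was the higher in all 3 underground tissues. The ratio in flower was 2.0 times that in rhizome_Y (1.57 to 2.55), 4.95 times that in rhizome_O (3.71 to 6.65) and 3.45 times that in secRoot (2.63 to 4.55).

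The unigenes TR57974|c2_g1 and TR57974|c2_g2 came out of one Trinity component, so that they share stretches of sequence and reads may be divided between them. Their FPKM ratio was 6.15 in flower (3.58 to 11.1), 2.24 in rhizome_Y (1.43 to 3.55), 1.03 in rhizome_O (0.552 to 1.89) and 2.04 in secRoot (1.30 to 3.21). Added up as one gene, they were 1.91-fold higher in flower than the underground mean (1.47 to 2.48). Without a sequence it could not be settled whether the shorter unigenes are separate genes, alleles or pieces of one gene, and a sum over them may count one transcript more than once.

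The same shift was read contig by contig. Contigs of a unigene can share reads, and 9 of the 18 belong to TR60511|c0_g1, so they are not independent readings and add no support to the unigene sums. Flower was the highest tissue for 16 of the 18 contigs, against 33.1% of the 77259 contigs with at least 10 counts over the 4 libraries. Over 2-fold above the underground mean were 10 of the 18, against 17% of those contigs, and the interval of that ratio lay above 1 for 13, against 18.7% of the 73102 contigs for which it could be given. The 13 include contig i3 of TR68099|c2_g1, whose interval leaves out the error of a count of 0 in secRoot. The 2 contigs not highest in flower were the single contig of TR57974|c2_g2 and TR58457|c0_g1_i1, with FPKM 12.48 in flower, against 13.38 in rhizome_Y, 11.68 in rhizome_O and 11.25 in the secondary root, a flower ratio of 1.03 (0.625 to 1.70).

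In TR68099|c2_g1 both long contigs carried the difference. Contig i2 (2115 bp) had FPKM 55.83 in flower, against 18.29 in rhizome_Y, 6.16 in rhizome_O and 6.31 in the secondary root, with 264, 102, 41 and 61 counts. Contig i1 (2125 bp) had FPKM 43.55 in flower, against 17.30 in rhizome_Y, 6.43 in rhizome_O and 5.55 in the secondary root, with 207, 97, 43 and 54 counts. The flower ratios of these contigs were 5.45 (4.52 to 6.55) for i2 and 4.46 (3.66 to 5.44) for i1. A short contig, i3 (444 bp), had only 10 counts in flower, 2 each in rhizome_Y and rhizome_O and 0 in secRoot, which was 2.08% of the unigene's flower counts but 12.4% of its flower FPKM, because FPKM divides by length.

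TR60511|c0_g1 was split over 9 contigs of 824 to 1585 bp with nearly even levels, FPKM 9.51 to 14.85 in flower, 3.03 to 9.57 in rhizome_Y, 5.69 to 9.15 in rhizome_O and 2.33 to 5.39 in secRoot. All 9 were highest in flower, with ratios to the underground mean of 1.31 to 2.20, and 4 were over 2-fold. The lowest ratio was that of contig i4, at FPKM 10.19 in flower, against 9.16 in rhizome_Y, 9.0 in rhizome_O and 5.13 in the secondary root, and the highest that of i9, at 9.51, 3.03, 7.62 and 2.33 in the same order. Intervals were clear of 1 for 6 of the 9, and no contig held more than 45 counts in flower.

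The contigs of TR57974|c2_g1 both leaned to flower, i1 (478 bp) by 3.58-fold (1.95 to 6.59) from 19 flower counts and i2 (842 bp) by 1.99-fold (1.37 to 2.89) from 41. Contig i2 of TR58457|c0_g1 had FPKM 28.66 in flower, against 13.91 in rhizome_Y, 10.20 in rhizome_O and 11.36 in the secondary root, a ratio of 2.42 (1.66 to 3.54). The flower excess of TR58457|c0_g1 was thus seen in i2, while for i1, at 1.03 (0.625 to 1.70), no difference was detectable. The intervals of i1 and i2 overlap slightly and reads may be divided between them, so the excess cannot be placed in i2 alone.

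**Figure D3:**
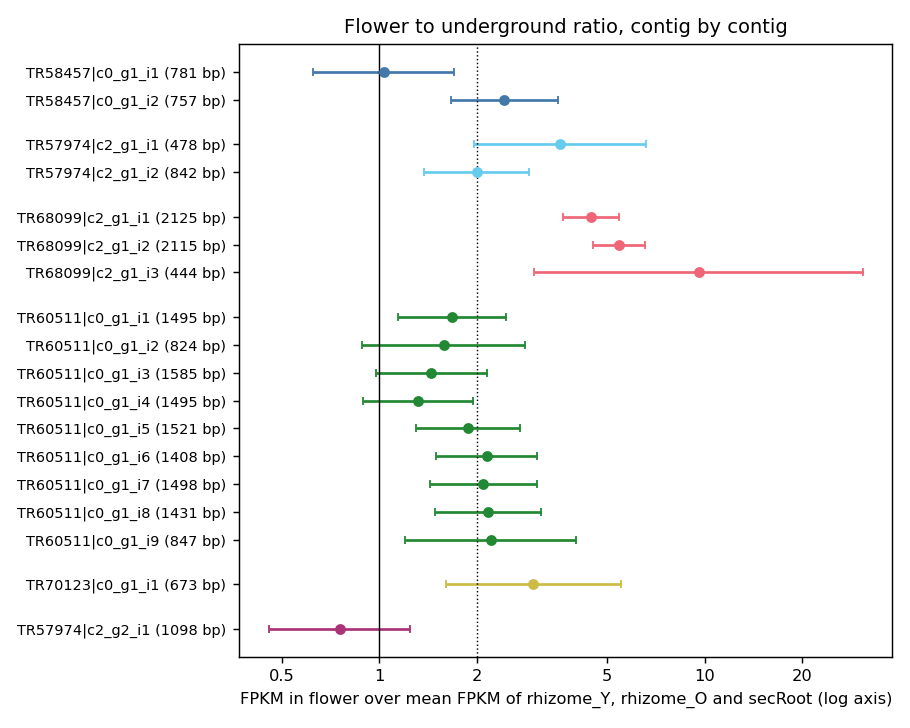
Ratio of the FPKM in flower to the underground mean for each of the 18 contigs, on a log axis with 95% counting intervals, grouped by unigene. The 3 contigs of TR68099|c2_g1 lie between 4.46 and 9.58, and the 9 of TR60511|c0_g1 between 1.31 and 2.20. The 9.58 is that of contig i3, with 10 counts in flower and 0 in secRoot. Its interval leaves out the error of that 0.

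The enzymes around HMGR leaned mostly the other way. Of 15 other mevalonate and triterpene pathway unigenes, a list that does not hold the whole pathway, 13 reached 20 counts over the 4 libraries other than leaf, and 0 of them were over 2-fold higher in flower than the underground mean, against 3 of the 6 HMGR unigenes. Over 2-fold lower in flower were 8 of the 13, against 19.6% of all unigenes, and 10 had an interval of the ratio below 1, against 20.7% of the 29463 unigenes for which it could be given. Their median log2 ratio was -1.32, from -2.56 to 0.57, against 1.10 for the HMGR unigenes. Rhizome_Y was the highest tissue for 9 of the 13, which was so for 17.4% of all unigenes.

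Before HMGR in the pathway stand acetyl-CoA acetyltransferase, which joins acetyl units, and HMG-CoA synthase, which makes the substrate of HMGR. The acetyltransferase TR54322|c1_g1 had FPKM 45.54 in flower, against 273.57 in rhizome_Y, 193.56 in rhizome_O and 190.70 in the secondary root, a flower ratio of 0.208 (0.179 to 0.241). The synthase TR51183|c0_g1 had FPKM 48.03 in flower, against 249.85 in rhizome_Y, 182.56 in rhizome_O and 161.06 in the secondary root, a ratio of 0.243 (0.209 to 0.282). Both were at their lowest in flower, where the HMGR total was at its highest. The HMGR total stood to this synthase at 6.83 in flower (5.83 to 8.04), 0.734 in rhizome_Y (0.663 to 0.812), 0.690 in rhizome_O (0.617 to 0.772) and 0.631 in secRoot (0.568 to 0.700). The flower ratio was 9.30 times that in rhizome_Y (7.70 to 11.3) and 10.8 times that in secRoot (8.95 to 13.2), whereas the 3 underground ratios lay close together.

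Behind HMGR, mevalonate kinase TR60355|c0_g1, which phosphorylates mevalonate, had FPKM 11.43 in flower, against 32.42 in rhizome_Y, 34.37 in rhizome_O and 26.89 in the secondary root. The decarboxylase of mevalonate diphosphate, TR63099|c0_g1, whose product is isopentenyl diphosphate, had FPKM 37.48 in flower, against 115.38 in rhizome_Y, 74.79 in rhizome_O and 90.76 in the secondary root. Both were lower in flower, with ratios of 0.366 (0.263 to 0.510) and 0.400 (0.337 to 0.475). The HMGR total stood to the decarboxylase at 8.75 in flower (7.33 to 10.5), against 1.59 in rhizome_Y, 1.69 in rhizome_O and 1.12 in secRoot.

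Farnesyl diphosphate synthase TR51426|c3_g1, supplier of the units joined into squalene, had a flower ratio of 0.393 (0.326 to 0.473), and squalene synthase TR62965|c0_g2 one of 0.571 (0.488 to 0.667). Beta-amyrin synthase, the cyclase that leads to the oleanane saponins, was measured on TR8430|c0_g1, which had the lowest ratio of the list, 0.169 (0.150 to 0.191), with FPKM 44.27 in flower, against 403.90 in rhizome_Y, 287.45 in rhizome_O and 94.49 in the secondary root. The dammarendiol synthases, which open the dammarane branch, had ratios of 0.336 (TR39742|c0_g1, 0.252 to 0.448) and 0.440 (TR71337|c0_g1, 0.289 to 0.671). Within the underground tissues, rhizome_Y was 1.81-fold above secRoot for the HMGR total (1.60 to 2.04), against 4.27-fold for TR8430|c0_g1 (4.0 to 4.57). The dammarendiol synthases were nearer to HMGR in this pair, at 2.13 (1.76 to 2.58) for TR39742|c0_g1 and 2.24 (1.63 to 3.09) for TR71337|c0_g1, with intervals that overlap that of HMGR.

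Other than HMGR, isopentenyl diphosphate isomerase and 1 squalene monooxygenase unigene were highest in flower. The isomerase TR61651|c0_g1, which interconverts the building blocks of terpenoids, had FPKM 229.31 in flower, against 189.16 in rhizome_Y, 198.96 in rhizome_O and 164.06 in the secondary root, a ratio of 1.25 (1.13 to 1.38). Squalene monooxygenase TR65926|c0_g1, which makes oxidosqualene, had FPKM 28.43 in flower, against 23.92 in rhizome_Y, 7.68 in rhizome_O and 25.69 in the secondary root, a ratio of 1.49 (1.20 to 1.84). Its flower level was within counting error of rhizome_Y, at 1.19-fold (0.907 to 1.56), and of secRoot, at 1.11-fold (0.872 to 1.40). Only rhizome_O was clearly lower, by 3.70-fold (2.58 to 5.39). The other squalene monooxygenase, TR56921|c0_g1, was lower in flower at 0.599 (0.485 to 0.738). A second beta-amyrin synthase unigene, TR76208|c0_g1, had only 5 counts in flower and a ratio of 1.22 (0.446 to 3.35).

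**Figure D4:**
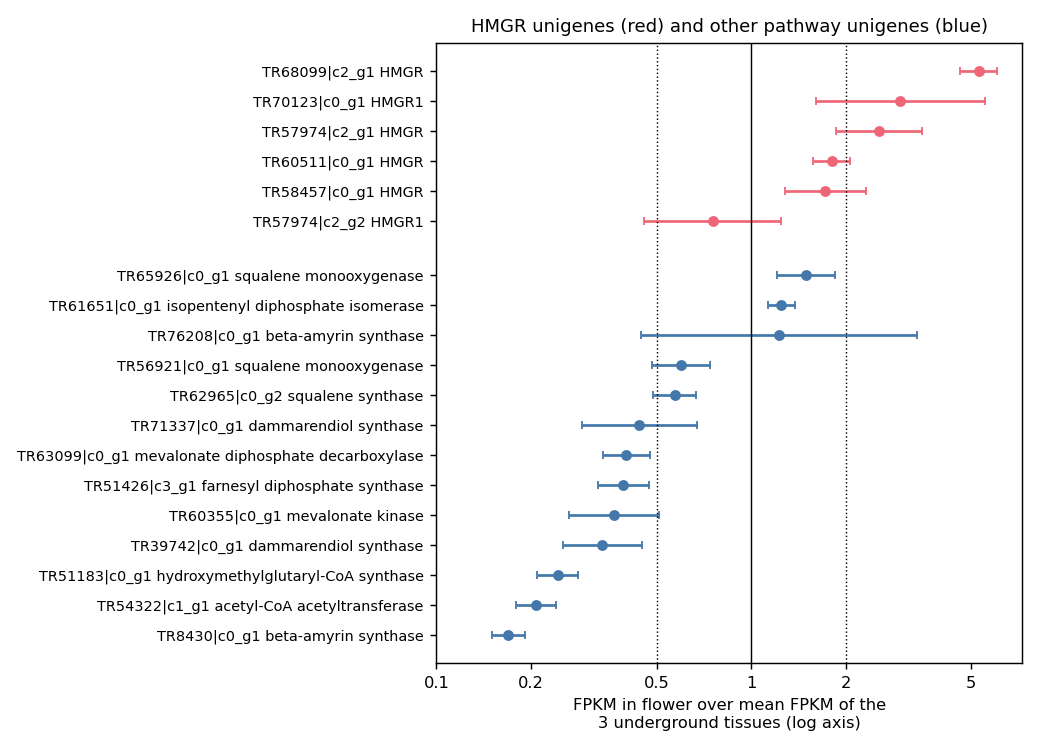
Ratio of the FPKM in flower to the underground mean, on a log axis with 95% counting intervals, for the 6 HMGR unigenes and the 13 other pathway unigenes with at least 20 counts. HMGR unigenes reach 5.28, and 10 of the 13 others lie below 1.

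**Figure D5:**
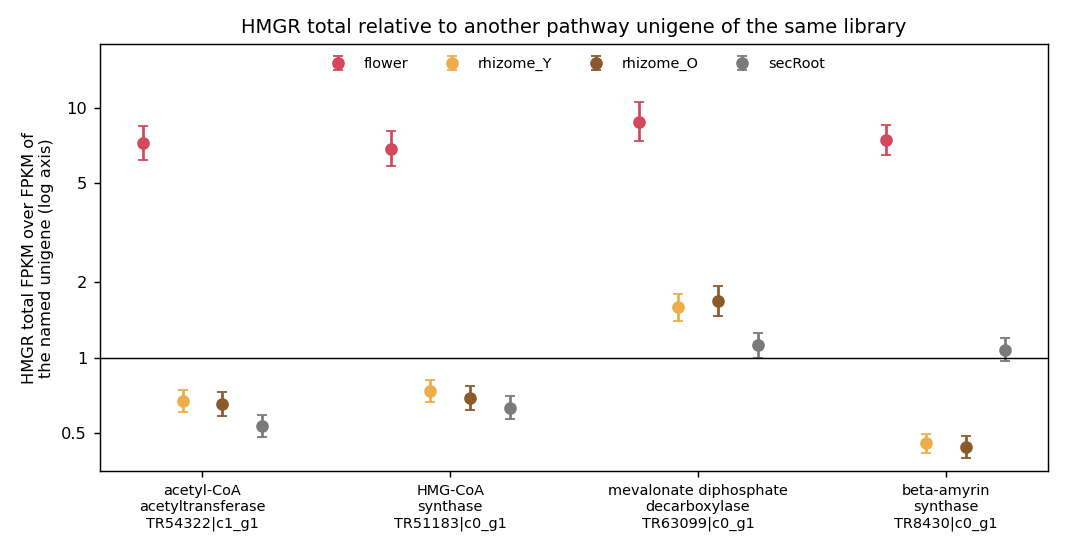
Ratios of FPKM within each of the 4 libraries other than leaf, on a log axis with 95% intervals, for the HMGR total over other pathway unigenes. The HMGR total is 6.83 times HMG-CoA synthase TR51183|c0_g1 in flower and 0.631 to 0.734 times in the underground tissues.

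Leaf was the lowest of the 5 tissues for all 6 HMGR unigenes, as it was for 94.1% of all unigenes tested. In leaf all 6 HMGR unigenes were below 5% of the mean of the 4 other tissues, as were 13 of the 13 other pathway unigenes and 95.6% of all unigenes tested. Unigenes were tested only if they had counts in the 4 other libraries, which leaves out those found mainly in leaf. These shares are therefore high largely by construction. With the minimum of 20 counts taken over all 5 libraries, 62.7% of unigenes had under 5% of their counts in leaf, so many unigenes other than HMGR were low there. The 2 pathway unigenes that missed the count minimum had nearly all their counts in leaf: acetyl-CoA acetyltransferase TR61952|c0_g1 had FPKM 0 in flower, against 0.26 in rhizome_Y, 0.21 in rhizome_O, 0 in the secondary root and 46.92 in leaf, and HMG-CoA synthase TR59102|c0_g1 had 25.64 in leaf and no count elsewhere. No such leaf unigene is among the 6 labelled HMGR or HMGR1. In the Trinity read cluster TR57974, 5 of the 6 unlabelled unigenes had most of their counts in leaf, 107 in all, against 7 in the 4 other libraries, and the strongest of these, TR57974|c1_g2, a choice made with its values in view, stood at FPKM 29.37 there. Among all unigenes with at least 20 counts over the 5 libraries, 35.9% had over 95% of their counts in leaf. These 5 unigenes held only 6 to 57 counts each, and whether they belong to HMGR was not tested.

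Among 12 unlabelled unigenes in the read clusters of the members, TR68099|c2_g2 (1762 bp) was the only one with at least 100 counts. It shares a Trinity component with TR68099|c2_g1 and has no annotation in the sources used here. Its FPKM was 23.82 in flower, against 22.93 in rhizome_Y, 40.69 in rhizome_O, 74.26 in the secondary root and 0.15 in leaf, with 88, 93, 183, 482 and 1 counts. Flower and rhizome_Y were the lowest of the 4 and secRoot the highest, an order nearly opposite to that of TR68099|c2_g1. Its ratio of flower to the underground mean was 0.518 (0.415 to 0.647), and TR68099|c2_g1 stood to it at 4.76 in flower (3.79 to 6.05), 1.66 in rhizome_Y (1.29 to 2.14), 0.359 in rhizome_O (0.274 to 0.466) and 0.160 in secRoot (0.129 to 0.196). Added together, the 2 unigenes of this component gave a flower ratio of 2.03 (1.84 to 2.25), and the sum was highest in flower but next highest in secRoot. With TR68099|c2_g2 counted as HMGR, the total was 1.17-fold higher in rhizome_Y than in secRoot, against 1.81-fold without it.

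Many unigenes had a tissue pattern like that of the HMGR total. Pearson's r of log2(FPKM + 1) over the 5 libraries was at least 0.99 for 1175 (5.24%) of 22415 unigenes with at least 100 counts, and over the 4 libraries without leaf for 176 (0.888%) of 19828. Each r rests on 5 points or fewer that share library and depth, and leaf, near 0, is the point farthest from the others. The 3 most alike were TR68118|c0_g1, with FPKM 13.06 in flower, against 8.96 in rhizome_Y, 7.35 in rhizome_O, 6.23 in the secondary root and 0 in leaf, then TR59181|c0_g2 and TR51823|c0_g1, none of which is annotated in the sources used here. Of the other pathway unigenes, isopentenyl diphosphate isomerase TR61651|c0_g1 was closest, with r = 0.98 over the 5 libraries and 0.88 without leaf. Many unigenes were closer, as it ranked 2959 of 22415 over the 5 libraries and 1963 of 19828 without leaf. In contrast, r without leaf was -0.73 for HMG-CoA synthase TR51183|c0_g1 and -0.77 for acetyl-CoA acetyltransferase TR54322|c1_g1, which ranked 15425 and 15769 of 19828.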

How the data were processed

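Per the labels and the study's methods, paired-end reads of each library were trimmed with Trimmomatic, assembled with Trinity 2.0.6 into one set of contigs, mapped back with Bowtie 2.0 and quantified with RSEM. The deposited tables give, per contig and library, the authors' expected counts, which are all whole numbers here, and the authors' FPKM and TPM values, together with the deposited contig lengths. The deposited series-wide FPKM table was not used (5 FPKM columns), because its column names could not be matched to single labels. Here the counts and FPKM of all contigs of a unigene were added up. Reads that match several near-identical contigs can be divided between them, so levels of single contigs are less certain than their sums.

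Groups follow the labels, with 1 library per tissue, so ratios are given without a test. The underground mean gives equal weight to rhizome_Y, rhizome_O and secRoot. Intervals (95%) are exact Poisson for levels, exact conditional for ratios of libraries or unigenes, a log-scale approximation from the counts for ratios to the underground mean, and Wilson for shares. RSEM counts are not independent molecules, since reads carried no molecular identifiers. A count of 0 was set to a floor of 3 counts for lower bounds. In ratios to the underground mean an underground count of 0 stayed at 0 and added no counting error. Backgrounds used unigenes with at least 20 counts over the 4 libraries other than leaf. Named were the 6 unigenes and their contigs with at least 10 counts, the other pathway unigenes, the 3 unigenes with the highest r, and read-cluster neighbours with at least 100 counts. The HMGR members and the pathway list were chosen with earlier results of these data known. The pathway list holds 15 unigenes for which the study's material gave the enzyme, and it lacks some steps, such as phosphomevalonate kinase. Alternatives were TPM, counts scaled by the library total alone, TMM factors (edgeR 4.0.16), median-of-ratios factors, single contigs, other count minimums and folds, added constants and leaving out each underground library. Computations used Python 3.11.15, scipy 1.17.1 and R 4.3.3, and the interval and call code was tested on simulated data.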

Additional observations from a re-analysis of the deposited data

How the results depend on the processing

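Of 88 alternative values, 72 stayed near the reported one, 14 moved and 2 changed direction. Those 2 were the ratio of rhizome_O to secRoot of the HMGR total, 1.24, which was 0.993 with the most abundant contig of each unigene and 0.948 with TR68099|c2_g2 added. Near meant inside the counting interval. For counts of unigenes and the background it meant within a factor of 1.5, so 2 or 4 in place of 3 passed. The 72 do not measure robustness, since some could not move. Library factors leave shares within a library unchanged, and adding up TR57974|c2 leaves the totals unchanged. The ratio of flower to the underground mean of the HMGR total, 2.39, was 2.64 with counts scaled by the library total alone, 2.88 without rhizome_Y, 2.12 without secRoot, 2.30 without rhizome_O and 1.92 with TR68099|c2_g2 added, and 2.25 to 2.53 under the others. Rhizome_Y to rhizome_O, 1.46, was 1.77 with the most abundant contig of each unigene and 1.24 with TR68099|c2_g2 added, which also brought rhizome_Y to secRoot down to 1.17. The count of unigenes past the fold was 3 at 2-fold, 5 at 1.5-fold and 1 at 3-fold. At 2-fold it was 2 with the unigenes of TR57974|c2 added up and with contigs of at least 500 bp, and 4 without rhizome_Y. With the most abundant contig it was 3, but TR58457|c0_g1 (2.42) was past the fold in place of TR57974|c2_g1 (1.99). The share of TR60511|c0_g1 in flower was 7.25% with the most abundant contig alone and 35.7% with contigs of at least 500 bp, and its share in rhizome_O was 58.8% with counts scaled by the library total alone, 19.9% with the most abundant contig alone and 39.6% with TR68099|c2_g2 added. The most abundant contig is a small part of a unigene split over 9 contigs, so that setting lowers its share by construction. Flower was highest for 5 unigenes in all 9 settings run, but not over the same set. Adding up TR57974|c2 merges the 1 unigene not highest in flower with another, and a further setting adds TR68099|c2_g2. The background past 2-fold was 11.9% with at least 100 counts and 23.1% with no minimum. The settings with TR68099|c2_g2, contigs of at least 500 bp and counts over the longest contig, and all settings of rhizome_O to secRoot, were chosen after seeing the data. The cause of the other shifts was not tested. No paired analysis was possible because each tissue has 1 library. The depth limits the HMGR1 unigenes most, at 7 to 39 counts a library outside leaf.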
